A study of Mus musculus with 12 samples.

Results

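The 76 genes described here encode the proteins of the mitochondrial ribosome in the mouse. They are the protein-coding genes whose symbol begins with Mrpl (large subunit series) or Mrps (small subunit series) followed by a digit, with at least 120 counts summed over 12 libraries, out of 54532 genes in the count table. The table holds 78 genes with such symbols. Mrpl35 was left out by the rule, and Mrpl53, listed at 0 counts, did not reach the minimum. The rule reads symbols and total counts, but it was written with earlier results of these data known, and Mrpl35 differed more between genotypes than any member. By textbook assignment, 49 members belong to the large subunit and 26 to the small subunit. Mrps30 and Mrps18a are counted with the large subunit, where their products sit. Mrps36 carries a ribosomal name, but its product belongs to the oxoglutarate dehydrogenase complex of the citric acid cycle.

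RNA from frontal cortex of 12 mice aged 9 months was sequenced after selection of mRNA. Groups were 3 APP/PS1/Hras-/- males, 3 APP/PS1 males, 3 APP/PS1/Hras-/- females and 3 APP/PS1 females. All 4 groups carried the APP/PS1 transgenes, which give an amyloid model of Alzheimer's disease, and the sources used here do not name the promoters that drive them. The knockout mice lacked Hras, a small GTPase gene of the Ras family, and the series has no mice without the transgenes. Every mouse gave 1 library, and the library numbers used below only name the mice.

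The mitochondrial ribosome sits inside the mitochondrion and translates the few mRNAs that the mitochondrial genome still encodes, all of them for membrane subunits of the respiratory chain and the ATP synthase. Its RNAs come from the mitochondrial genome, while each of its proteins is encoded in the nucleus, made in the cytosol and imported. Some of the proteins have a counterpart in bacterial ribosomes and others were gained by the mitochondrial lineage. In neurons the respiratory chain supplies most of the ATP that synapses use.

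By origin, 45 members were counted as having a bacterial counterpart and 30 as specific to mitochondria. Mrps18a and Mrps18b were counted among the 30, although they and Mrps18c are relatives of the same bacterial small subunit protein. The genes lie scattered over 17 chromosomes, with 11 on chromosome 11, 8 on chromosome 17, 6 on chromosome 7 and 5 on chromosome 6. They are short, with a median transcript length of 1302 bases against 3077 bases for tested protein-coding genes. A protein-coding gene starts within 1 kb on the other strand for 33 of the 76 members (43.4%), against 2126 of 14590 tested protein-coding genes (14.6%). Exon bases were shared with another gene of at least 120 counts for 21 members (27.6%). The libraries were made with a stranded kit, but the sources used here do not give the strand setting of the counting. Whether the counts separate reads of a member from those of a partner on the opposite strand is therefore not known. Mrps34 shares 63.4% of its exon bases with Mapk8ip3, and Mrps25 shares 69.8% with Nr2c2, both on the opposite strand. Mrpl46 and Mrps11, both members, start 412 bases apart on opposite strands and share 173 exon bases.

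Promoter sequence was available from RefSeq (GRCm38.p6) for 67 of the 76 members, in 73 windows running from 250 bases before to 50 after the gene's start. Motifs of factors known to act on nuclear genes of mitochondrial proteins were searched on both strands. They were CCGGAAG, a core bound by GABPA, GCGCATG, a core bound by NRF1, and GATGGCG, a core bound by YY1. The GABPA core was found for 25 of 67 members (37.3%), against 12.9% of protein-coding genes and 9.93% of all genes in the same RefSeq table. By window, these shares were 34.2% for members and 11.6% for protein-coding genes. The NRF1 core was found for 8 members (11.9%), against 5.4% of protein-coding genes, and the YY1 core for 7 members (10.4%), against 4.95%. Median GC content of the windows was 58.7% for members and 56.3% for protein-coding genes. These are descriptions of letters in a window, without a test. The genes set beside the members were all those in RefSeq, not only those tested in these libraries, as all members were. The 120 bases before the start of 4 members are printed below, 5′ to 3′ on the gene's strand (GRCm38.p6), because Mrpl34 and Mrpl22 return below among the members with the largest female differences, Mrps22 among those that lay higher in knockout males, and Mrpl9 holds the NRF1 core on both strands, its 2 copies overlapping. Capitals mark the GABPA core in the first 3, the NRF1 core as a second run in Mrpl22, and the NRF1 copies in Mrpl9.
Mrpl34, chr8:71464806-71464925, + strand: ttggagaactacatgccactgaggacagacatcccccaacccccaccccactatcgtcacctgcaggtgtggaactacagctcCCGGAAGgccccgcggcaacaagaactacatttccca
Mrpl22, chr11:58171544-58171663, + strand: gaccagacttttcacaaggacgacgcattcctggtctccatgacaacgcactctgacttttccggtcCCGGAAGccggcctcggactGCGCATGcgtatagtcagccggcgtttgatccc
Mrps22, chr9:98601680-98601799, - strand: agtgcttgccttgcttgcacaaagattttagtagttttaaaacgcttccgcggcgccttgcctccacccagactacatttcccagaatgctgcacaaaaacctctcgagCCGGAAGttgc
Mrpl9, chr3:94443216-94443335, + strand: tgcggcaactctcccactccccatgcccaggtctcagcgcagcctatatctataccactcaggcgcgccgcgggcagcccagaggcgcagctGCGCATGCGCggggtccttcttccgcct

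All 76 members passed the filter on low counts that left 17307 genes for testing. Levels are given as CPM, read counts scaled to one library total with TMM factors. Across the 12 libraries the members averaged between 6.01 and 60.6 CPM, with a median of 21.1 CPM. The highest mean levels in CPM belonged to Mrpl3 (60.6 CPM), a component of the large subunit, and Mrpl48 (59.6 CPM), which is specific to mitochondria. They were followed by Mrps17 (53.0 CPM), Mrps5 (48.2 CPM), Mrpl37 (44.9 CPM) and Mrpl10 (42.0 CPM). The lowest were Mrps18c (6.01 CPM), Mrps28 (6.10 CPM), Mrpl34 (8.31 CPM) and Mrpl33 (9.32 CPM). A count grows with transcript length, so genes are better compared per kb of the principal transcript. On that scale the leading levels were 41.0 CPM per kb for Mrps18a, 40.9 for Mrpl20, 40.6 for Mrpl41, 39.9 for Mrpl42, 38.9 for Mrps21 and 35.3 for Mrpl30. Mrpl3 reached 15.3 CPM per kb and Mrpl48 13.9 CPM per kb, below the 6 leading genes on that scale. Rab6a shares 8.7% of the exon bases of Mrpl48 on the opposite strand.

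**Figure D1:**
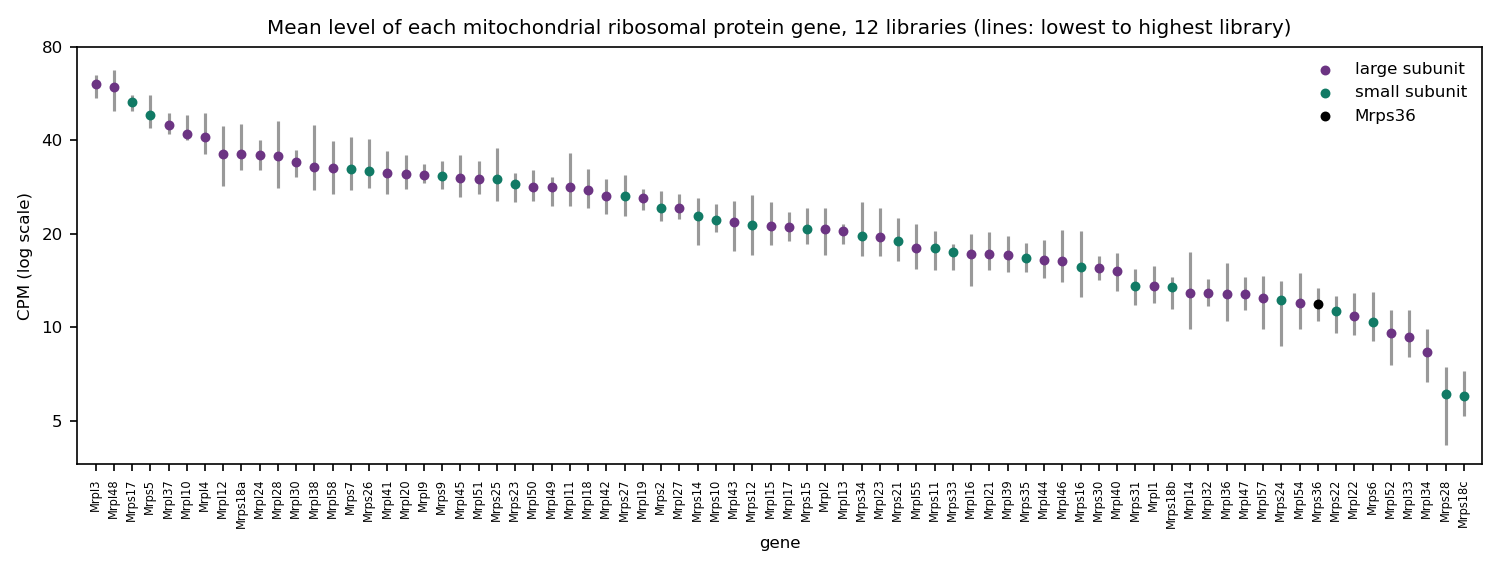
Mean level of each of the 76 genes over the 12 libraries, in CPM on a log scale, ordered from high to low; points are means coloured by subunit and grey lines run from the lowest to the highest library. Means fall from 60.6 CPM for Mrpl3 to 6.01 CPM for Mrps18c, and large and small subunit genes are mixed along the order.

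Members varied little between mice. The coefficient of variation over the 12 libraries had a median of 9.02% for members, against 13.3% for all genes tested and 10.97% for the 7706 tested genes whose mean lay in the members' range of levels. It ran from 3.25% for Mrps17 to 20.3% for Mrpl14. Mrps17, a small subunit protein with a bacterial counterpart, had 53.8, 52.5 and 53.1 CPM in the 3 APP/PS1/Hras-/- males, against 55.95, 52.5 and 53.6 CPM in the 3 APP/PS1 males. In females Mrps17 had 51.3, 55.7 and 53.4 CPM in the 3 APP/PS1/Hras-/- females, against 49.7, 51.96 and 52.98 CPM in the 3 APP/PS1 females. All 12 values of Mrps17 lay within a narrow band and the groups overlapped in both sexes.

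Total counts ran from 13984692 to 20174131 per library. Hras, the deleted gene, had 23.4, 20.9 and 20.4 CPM in the 3 APP/PS1/Hras-/- males, against 102, 79.7 and 84.02 CPM in the 3 APP/PS1 males. In females it had 19.4, 20.4 and 23.4 CPM in the 3 APP/PS1/Hras-/- females, against 77.99, 79.7 and 73.7 CPM in the 3 APP/PS1 females. Each knockout library lay below each APP/PS1 library, and the difference across sexes was -1.95 (SE 0.077, adjusted p = 3.05e-09, edgeR). Neuronal markers were present in every library, with Slc17a7, the glutamate transporter of cortical excitatory neurons, at a mean of 1186 CPM and the lowest of the 12 neuronal markers, Vip, at 37.0 CPM. Tissue content and RNA quality differed between mice. The summed level of 6 choroid plexus markers ranged from 11.2 to 3067 CPM over the 12 libraries. On the first principal component (23.9% of the variance), APP/PS1/Hras-/- male 1 and APP/PS1 female 2 stood apart. The RNA integrity number (RIN) was 8.6 to 8.7 in knockout males and 7.8 to 8.3 in APP/PS1 males, without overlap, and 8.3 to 8.5 in knockout females and 8.5 to 8.6 in APP/PS1 females.

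Summed over the 76 members, the level was 1794, 1745 and 1747 CPM in the 3 APP/PS1/Hras-/- males, against 1999, 1826 and 1846 CPM in the 3 APP/PS1 males. It was 1796, 1756 and 1898 CPM in the 3 APP/PS1/Hras-/- females, against 1762, 1755 and 1747 CPM in the 3 APP/PS1 females. The sums of knockout males lay below all of those of APP/PS1 males, and those of females overlapped. Group means were 1762 ± 27.7 CPM in knockout males and 1891 ± 94.7 CPM in APP/PS1 males, and 1816 ± 72.9 CPM in knockout females and 1755 ± 7.35 CPM in APP/PS1 females (SD, n = 3 each). A sum over a chosen set is given here without a test. In bulk tissue, fewer cells of a type and less RNA per cell cannot be told apart.

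The sums of the 2 subunits kept a similar ratio in every library. Large subunit members summed to 1203, 1174 and 1176 CPM in knockout males, against 1352, 1238 and 1259 CPM in APP/PS1 males. In females they summed to 1218, 1180 and 1292 CPM in knockouts, against 1193, 1178 and 1190 CPM in APP/PS1 mice. Small subunit members summed to 578.9, 558.6 and 558.9 CPM in knockout males, against 636.3, 575.2 and 576.4 CPM in APP/PS1 males. In females they summed to 565.4, 563 and 593.6 CPM in knockouts, against 557.7, 564.7 and 546.8 CPM in APP/PS1 mice. The ratio of the large to the small sum stayed between 2.08 and 2.18 in all 12 libraries. Within that range it was 2.078, 2.102 and 2.104 in knockout males, against 2.125, 2.151 and 2.184 in APP/PS1 males, without overlap. Female ratios were 2.153, 2.096 and 2.177 in knockouts, against 2.138, 2.086 and 2.177 in APP/PS1 mice, and overlapped.

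Many of the highest values fell in 2 libraries. APP/PS1/Hras-/- female 3 held the highest value of 13 of the 76 members, and APP/PS1 male 1, which had the lowest RIN, 7.8, held that of 31 members. The summed level of 6 excitatory neuron markers was 1601, 1581 and 1718 CPM in knockout males, against 1965, 1700 and 1761 CPM in APP/PS1 males. It was 1666, 1447 and 1969 CPM in knockout females, against 1580, 1341 and 1578 CPM in APP/PS1 females. The same 2 libraries had the highest sums of these markers, and their part in the members' levels was not tested. RIN was lowest in APP/PS1 males 1, 2 and 3 (7.8, 8.2 and 8.3) and in APP/PS1/Hras-/- female 3 (8.3). Those libraries had the highest member sums, at 1999, 1826, 1846 and 1898 CPM in that order. Every other library had a RIN of 8.4 to 8.7 and a member sum of 1745 to 1796 CPM. The part of RIN in these sums was not tested.

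**Figure D2:**
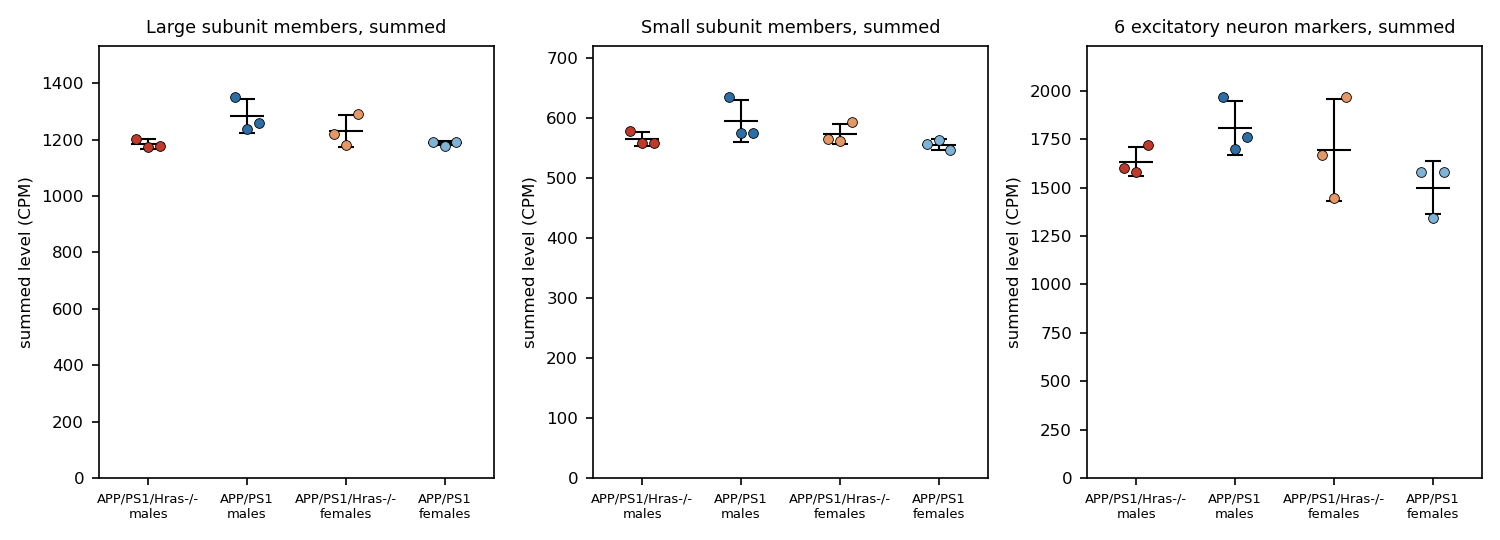
Summed CPM of the large subunit members, the small subunit members and 6 excitatory neuron markers in each library; points are mice, horizontal bars are group means and error bars are SD (n = 3 each). APP/PS1 male 1 is the highest point for both subunits (1352 and 636.3 CPM), and for the markers APP/PS1/Hras-/- female 3 (1969 CPM) and APP/PS1 male 1 (1965 CPM) are the highest.

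Across both sexes, no member differed between APP/PS1/Hras-/- and APP/PS1 mice at an adjusted p under 0.05. The count was 0 of 76 with edgeR, DESeq2 and limma-voom, while 0.0173% of all genes tested (3 genes) were called by edgeR. At an unadjusted p under 0.05 each of the 3 tools found 1 member, against 1.68% of all genes with edgeR. The lowest adjusted p of a member was 0.9999 (edgeR). Log2 differences, knockout minus APP/PS1, ran from -0.24 to 0.13, with 25 members higher and 51 lower in knockouts. Their median was -0.02, against 0.0024 for all genes tested, of which 51.1% were higher. By subunit the median was -0.03 for the large and -0.01 for the small subunit. The widest of the members' approximate 95% intervals extended 0.31 to either side. Without APP/PS1 male 1, 39 members were higher and 37 lower, and with RIN as a covariate 50 were higher and 26 lower, so the direction of the set was not stable.

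The single member with an unadjusted p under 0.05 was Mrps18c (ENSMUSG00000016833, chr5:100798627-100804471, + strand), 1 of 3 mitochondrial relatives of a bacterial small subunit protein and the member with the lowest mean level. It had 5.27, 5.86 and 5.79 CPM in the 3 APP/PS1/Hras-/- males, against 6.90, 7.15 and 5.29 CPM in the 3 APP/PS1 males. In females it had 5.19, 5.34 and 5.603 CPM in the 3 APP/PS1/Hras-/- females, against 6.33, 7.26 and 6.17 CPM in the 3 APP/PS1 females. Values were low throughout and overlapped in males, where APP/PS1 male 3 lay among the knockouts, but not in females. The difference across sexes was -0.24 (SE 0.11, unadjusted p = 0.0389, adjusted p = 0.9999), with an interval of -0.45 to -0.03. A gene of uncertain coding status on the same strand, Gm43511, shares 23.2% of its exon bases.

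Mrpl46 (ENSMUSG00000030612, chr7:78775236-78783531, - strand), a large subunit protein specific to mitochondria, was the only member whose 6 knockout values all lay below its 6 APP/PS1 values; 9 of all 17307 genes (0.052%) did so. No member had all 6 knockout values above, as 0.0636% of all genes did. It had 15.3, 16.1 and 15.6 CPM in the 3 APP/PS1/Hras-/- males, against 20.6, 16.7 and 16.8 CPM in the 3 APP/PS1 males. Its female values were 15.7, 14.03 and 16.2 CPM in the 3 APP/PS1/Hras-/- females, against 16.9, 16.2 and 16.4 CPM in the 3 APP/PS1 females. The gap was narrow: the highest knockout value, in female 3, and the lowest APP/PS1 value, in female 2, both round to 16.2 CPM, while APP/PS1 male 1 stood far above the rest. The difference was -0.15 (SE 0.074, unadjusted p = 0.0568, adjusted p = 0.9999), and -0.10 without APP/PS1 male 1. In males alone it was -0.20 (SE 0.11), and 0.09 with RIN as a covariate. Its divergent neighbour Mrps11, a small subunit protein, had 17.2, 20.5 and 16.9 CPM in the 3 APP/PS1/Hras-/- males, against 19.98, 20.1 and 18.3 CPM in the 3 APP/PS1 males. In females Mrps11 had 18.1, 15.9 and 18.5 CPM in the 3 APP/PS1/Hras-/- females, against 16.4, 18.8 and 15.3 CPM in the 3 APP/PS1 females, and its groups overlapped in both sexes.

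Of the members that lay higher in knockouts, Mrps30 (ENSMUSG00000021731, chr13:118378381-118387252, - strand), a large subunit protein despite its name, had the smallest p. It had 16.99, 16.2 and 16.7 CPM in the 3 APP/PS1/Hras-/- males, against 14.2, 14.97 and 14.99 CPM in the 3 APP/PS1 males. In females it had 15.3, 16.7 and 15.8 CPM in the 3 APP/PS1/Hras-/- females, against 15.3, 15.4 and 14.3 CPM in the 3 APP/PS1 females. Every knockout male lay above every APP/PS1 male, and in females the ranges overlapped. Its male difference was opposite in direction to that of most members (58 of 76 were lower). The difference across sexes was 0.13 (SE 0.063, unadjusted p = 0.0576, adjusted p = 0.9999). The next members by p on the higher side were Mrps18b, Mrpl1 and Mrps31, with differences of 0.10 (SE 0.076), 0.09 (SE 0.074) and 0.09 (SE 0.078). On the lower side they were Mrpl11 and Mrps34, with differences of -0.12 (SE 0.089) and -0.13 (SE 0.091). Without APP/PS1 male 1 these were -0.06 and -0.07, and with RIN as a covariate -0.02 and -0.0072. None of these passed the adjusted threshold.

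Members near the deleted gene or on chromosome 6, which also carries Mrpl35, were examined as well. Mrpl23 (ENSMUSG00000037772, chr7:142532686-142540747, + strand), a large subunit protein with a bacterial counterpart, lies 1.34 Mb from Hras on chromosome 7. It had 18.9, 19.7 and 17.5 CPM in the 3 APP/PS1/Hras-/- males, against 24.2, 20.5 and 19.9 CPM in the 3 APP/PS1 males. The female values were 16.9, 20.4 and 23.2 CPM in the 3 APP/PS1/Hras-/- females, against 17.2, 19.1 and 17.1 CPM in the 3 APP/PS1 females. Knockout males lay below APP/PS1 males and the females overlapped, and the difference across sexes was -0.01 (SE 0.099). It changed sign with RIN as a covariate (0.12) and without APP/PS1 male 1 (0.05). The 5 chromosome 6 members showed differences of -0.07 (SE 0.058) for Mrpl19, -0.06 (SE 0.066) for Mrpl51, -0.01 (SE 0.093) for Mrps25, 0.08 (SE 0.068) for Mrps33 and 0.08 (SE 0.074) for Mrps35. That of Mrps25 also turned positive, to 0.04 with RIN and to 0.03 without APP/PS1 male 1. Mrpl35, not a member here, had a difference of -0.51 (SE 0.12, unadjusted p = 0.00055, adjusted p = 0.9999), larger than that of any member.

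In males, 58 of the 76 members were lower and 18 higher in APP/PS1/Hras-/- than in APP/PS1 mice, with a median log2 difference of -0.09, against 0.0063 for all genes tested, of which 51.5% were higher. The median was -0.11 for the large and -0.05 for the small subunit. No member passed the adjusted threshold with edgeR, DESeq2 or limma-voom, against 0.0116% of all genes with edgeR. At an unadjusted p under 0.05, 7 members were lower with edgeR (1.75% of all genes were), 3 with DESeq2 and 6 with limma-voom, and none was higher with any of the 3 (2.16% of all genes were with edgeR). All 3 knockout values lay below all 3 APP/PS1 values for 16 members (21.1%), against 5.22% of all genes. The opposite held for 1 member, Mrps30, against 5.08% of all genes. Without APP/PS1 male 1, 54 members were lower and 19 did not overlap downwards, against 9.6% of all genes. With RIN as a covariate only 30 of the 76 were lower and the median was 0.05, so the male direction was lost under that setting. RIN and genotype do not overlap in males and cannot be told apart there.

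The smallest p among males belonged to Mrps34 (ENSMUSG00000038880, chr17:24895116-24897502, + strand), a small subunit protein specific to mitochondria. It had 18.5, 17.7 and 19.04 CPM in the 3 APP/PS1/Hras-/- males, against 25.3, 21.4 and 23.2 CPM in the 3 APP/PS1 males. Its female values were 18.2, 17.7 and 21.4 CPM in the 3 APP/PS1/Hras-/- females, against 18.1, 18.8 and 17.02 CPM in the 3 APP/PS1 females. Knockout males lay below APP/PS1 males without overlap, and the females overlapped. The male difference was -0.34 (SE 0.10, unadjusted p = 0.00564, adjusted p = 0.9454), with an interval of -0.54 to -0.14, and -0.10 (SE 0.18) with RIN as a covariate. Mapk8ip3, which shares its exon bases on the opposite strand, had 134692 counts over the 12 libraries, against 4071 for Mrps34. Nme3, a protein-coding gene on the same strand, shares 37.0% of the exon bases of Mrps34, with 0 counts found for it.

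Mrpl28 (ENSMUSG00000024181, chr17:26123500-26126613, + strand), a large subunit protein with a bacterial counterpart, had 32.99, 31.6 and 31.4 CPM in the 3 APP/PS1/Hras-/- males, against 46.2, 37.5 and 38.9 CPM in the 3 APP/PS1 males. Female values were 38.5, 32.6 and 40.4 CPM in the 3 APP/PS1/Hras-/- females, against 32.5, 28.1 and 37.5 CPM in the 3 APP/PS1 females. Males were again apart, with APP/PS1 male 1 the highest, and females overlapped. The male difference was -0.35 (SE 0.12, unadjusted p = 0.0111, adjusted p = 0.9454), and -0.05 (SE 0.21) with RIN as a covariate. Mrps26, specific to mitochondria, had 29.3, 29.9 and 30.6 CPM in the 3 APP/PS1/Hras-/- males, against 40.4, 32.4 and 34.3 CPM in the 3 APP/PS1 males. Its male difference was -0.25 (SE 0.099, unadjusted p = 0.0228, adjusted p = 0.9454), without overlap in males, but 0.02 with RIN as a covariate and -0.16 without APP/PS1 male 1. Mrpl4, a large subunit protein, had 36.3, 40.2 and 41.8 CPM in the 3 APP/PS1/Hras-/- males, against 49.1, 41.4 and 44.8 CPM in the 3 APP/PS1 males. Its values overlapped in males, with a difference of -0.19 (SE 0.087, unadjusted p = 0.0444, adjusted p = 0.9454), which was -0.05 with RIN as a covariate and -0.13 without APP/PS1 male 1.

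The members higher in knockout males with the smallest p were Mrps30 at 0.17 (SE 0.090), Mrps33 at 0.14 (SE 0.097), Mrpl50 at 0.11 (SE 0.096) and Mrps22 at 0.15 (SE 0.14). Mrps22, whose upstream sequence is printed above, had 12.4, 12.6 and 9.58 CPM in the 3 APP/PS1/Hras-/- males, against 9.81, 10.1 and 11.4 CPM in the 3 APP/PS1 males. Its ranges overlapped. The signs of Mrps33 and Mrps22 turned with RIN as a covariate, to -0.04 and -0.02, and Mrps30 was then 0.11. Mrpl50 was 0.04 without APP/PS1/Hras-/- male 1. The windows of Mrps22 and Mrps33 hold a GABPA core, and those of Mrps30 and Mrpl50 hold none of the 3 cores. A GABPA core was found for 37.3% of members with promoter sequence, and its link to the differences was not tested.

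In females, 50 members were higher and 26 lower in APP/PS1/Hras-/- than in APP/PS1 mice, with a median log2 difference of 0.05, against 0.0021 for all genes tested, of which 50.5% were higher. The median was 0.05 for the large and 0.04 for the small subunit. No member passed the adjusted threshold with any of the 3 tools, against 0.0116% of all genes with edgeR. At an unadjusted p under 0.05, 3 members were higher with edgeR (1.43% of all genes were), 1 with DESeq2 and 3 with limma-voom, and none was lower (2.37% of all genes were). All 3 knockout values lay above all 3 APP/PS1 values for 9 members (11.8%), against 4.33% of all genes, and below them for 2, Mrpl46 and Mrps18c, against 5% of all genes. Without APP/PS1/Hras-/- female 3, 40 members were higher, 11 did not overlap upwards, against 9.79% of all genes, and the median was 0.0042.

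Mrps18b (ENSMUSG00000024436, chr17:35910379-35916389, - strand), a small subunit protein, had 14.2, 14.3 and 13.8 CPM in the 3 APP/PS1/Hras-/- females, against 12.6, 11.5 and 11.7 CPM in the 3 APP/PS1 females. In males it had 13.1, 13.5 and 14.5 CPM in the 3 APP/PS1/Hras-/- males, against 14.2, 14.5 and 13.5 CPM in the 3 APP/PS1 males. The female groups were apart and the male groups overlapped. The female difference was 0.24 (SE 0.096, unadjusted p = 0.0257, adjusted p = 0.9905), with an interval of 0.05 to 0.43. Mrps31 (ENSMUSG00000031533, chr8:22411361-22429665, + strand), specific to mitochondria, had 15.4, 14.6 and 14.6 CPM in the 3 APP/PS1/Hras-/- females, against 13.8, 12.2 and 11.8 CPM in the 3 APP/PS1 females. In males it had 13.4, 13.1 and 13.1 CPM in the 3 APP/PS1/Hras-/- males, against 13.5, 14.04 and 13.5 CPM in the 3 APP/PS1 males. Its females were apart with knockouts higher, and its males were apart with knockouts lower by a small margin. The female difference was 0.24 (SE 0.098, unadjusted p = 0.0315, adjusted p = 0.9905).

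Mrpl34 (ENSMUSG00000034880, chr8:71464959-71465747, + strand), a short protein of the large subunit with a bacterial counterpart, had 8.76, 9.47 and 9.87 CPM in the 3 APP/PS1/Hras-/- females, against 7.04, 6.91 and 8.44 CPM in the 3 APP/PS1 females. In males it had 6.68, 7.31 and 8.71 CPM in the 3 APP/PS1/Hras-/- males, against 9.21, 8.13 and 9.21 CPM in the 3 APP/PS1 males. Knockout females lay above APP/PS1 females, and the males overlapped. Its female difference, 0.33 (SE 0.14, unadjusted p = 0.0376, adjusted p = 0.9905), was the largest among the members in females. Mrpl22, a large subunit protein whose bacterial counterpart lines the exit tunnel, had 11.1, 11.7 and 12.9 CPM in the 3 APP/PS1/Hras-/- females, against 9.48, 10.02 and 10.4 CPM in the 3 APP/PS1 females, again without overlap, and a female difference of 0.26 (SE 0.12, unadjusted p = 0.0599, adjusted p = 0.9905). The sequences of both genes printed above hold a GABPA core, and the longer window of Mrps18b holds a GABPA and an NRF1 core, while that of Mrps31 holds none of the 3. No link between these cores and the female differences was tested. On the lower side the smallest p values belonged to Mrps18c at -0.29 (SE 0.15), Mrpl46 at -0.11 (SE 0.11), Mrps6 at -0.16 (SE 0.16) and Mrpl52 at -0.15 (SE 0.16). Without APP/PS1/Hras-/- female 2, Mrpl46 was -0.05 and Mrpl52 -0.03, and without APP/PS1 female 2, Mrps6 was -0.04.

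**Figure D3:**
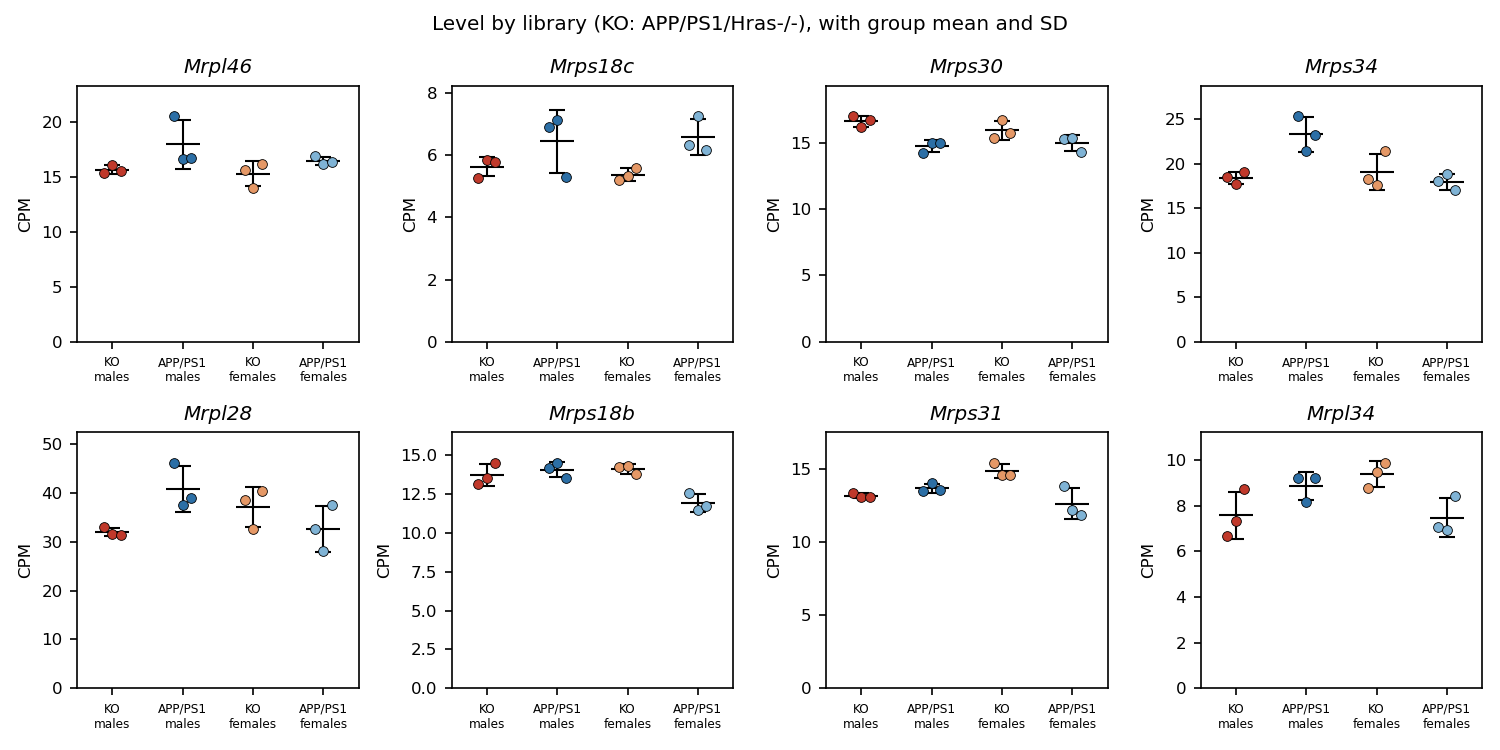
CPM in each library for 8 named genes, with group means and SD (n = 3 each; KO stands for APP/PS1/Hras-/-). Mrpl46 has all KO points at or below 16.2 CPM, Mrps34 and Mrpl28 are lower in KO males than in APP/PS1 males, and Mrps18b, Mrps31 and Mrpl34 are higher in KO females than in APP/PS1 females.

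The difference between the effects in the 2 sexes was tested as an interaction (female effect minus male effect). It was positive for 56 members and negative for 20, with a median of 0.13, against -0.0068 for all genes tested, of which 49.0% were positive. The median was 0.17 for the large and 0.09 for the small subunit. No member, and no gene (0%), passed the adjusted threshold with edgeR, and no member passed with DESeq2 or limma-voom. At an unadjusted p under 0.05, 13 members were positive with edgeR (3.23% of all genes were), 11 with DESeq2 and 14 with limma-voom, and none was negative (3.98% of all genes were). The lowest adjusted p of a member was 0.6672 (edgeR). Mrpl28 and Mrps34 had the smallest p, with interactions of 0.54 (SE 0.17, unadjusted p = 0.00699, adjusted p = 0.6672) and 0.43 (SE 0.15, unadjusted p = 0.0113, adjusted p = 0.6672), and Mrpl34 had the largest estimate, 0.55 (SE 0.20). With RIN as a covariate these were 0.16 (SE 0.27), 0.13 (SE 0.23) and 0.44 (SE 0.35). The negative members with the smallest p were Mrps6 at -0.20 (SE 0.23) and Mrps33 at -0.11 (SE 0.14). Mrps6 ran from -0.35 without APP/PS1 male 1 to -0.08 without APP/PS1 female 2, and Mrps33 was 0.10 with RIN as a covariate. Under that covariate 32 members were positive and 44 negative, and the median was -0.04.

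**Figure D4:**
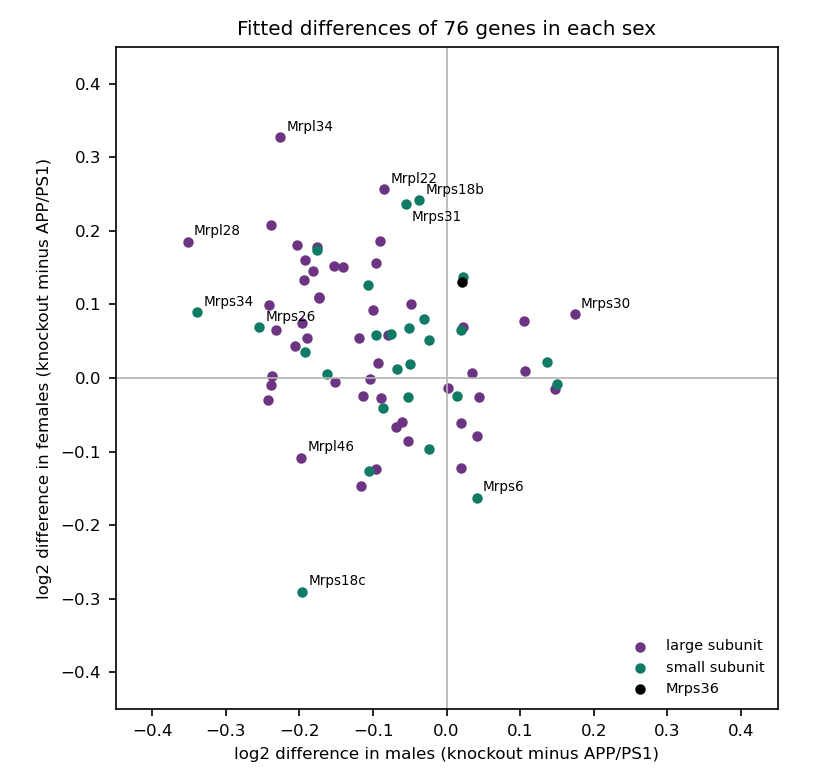
Fitted log2 differences of the 76 genes between APP/PS1/Hras-/- and APP/PS1 mice, in males on the horizontal and in females on the vertical axis, coloured by subunit. Most points lie left of 0 in males (58 of 76) and above 0 in females (50 of 76), and no member passed an adjusted p of 0.05 on either axis.

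Markers of some cell types lay in opposite directions in the 2 sexes, and those of others did not. In males all 6 excitatory neuron markers were lower in knockouts (median log2 difference -0.13), while 6 of 6 astrocyte markers (0.13), 5 of 6 microglia markers (0.16) and 6 of 6 choroid plexus markers (1.61) were higher. In females all 6 excitatory neuron markers were higher in knockouts (0.32), and 6 of 6 astrocyte markers (-0.20), 6 of 6 microglia markers (-0.20) and 6 of 6 choroid plexus markers (-2.12) were lower. Summed choroid plexus levels were 590.6, 66.5 and 11.2 CPM in knockout females, against 41.1, 3067 and 69.7 CPM in APP/PS1 females. The groups overlapped, and APP/PS1 female 2 alone held the high APP/PS1 value. In males these sums were 20.5, 529.3 and 342.2 CPM in knockouts, against 203.4, 36.2 and 37.4 CPM in APP/PS1 mice, and also overlapped. No marker passed the adjusted threshold in either sex (edgeR). Leptomeninges markers were all higher in knockout males (0.33) and all lower in knockout females (-0.36), and inhibitory neuron markers were lower for 5 of 6 in males (-0.11) and higher for 4 of 6 in females (0.12). Oligodendrocyte markers were higher in knockouts in both sexes, for 5 of 6 in males (0.05) and 6 of 6 in females (0.16), and 6 of 6 striatum markers were lower in both (-0.27 and -0.38). Endothelium markers were higher for 5 of 6 in males (0.13) and 3 of 6 in females (0.02). At an unadjusted p under 0.05 (edgeR), no marker of these 9 lists passed in males, where 3.91% of all genes tested did. In females 2 astrocyte markers and 1 each of the excitatory, inhibitory, endothelium and leptomeninges markers did, where 3.81% of all genes tested did. Summed excitatory marker levels ran from 1581 to 1718 CPM in knockout males and from 1700 to 1965 CPM in APP/PS1 males, and from 1447 to 1969 CPM in knockout females and from 1341 to 1580 CPM in APP/PS1 females. Their part in the members' differences was not tested.

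**Figure D5:**
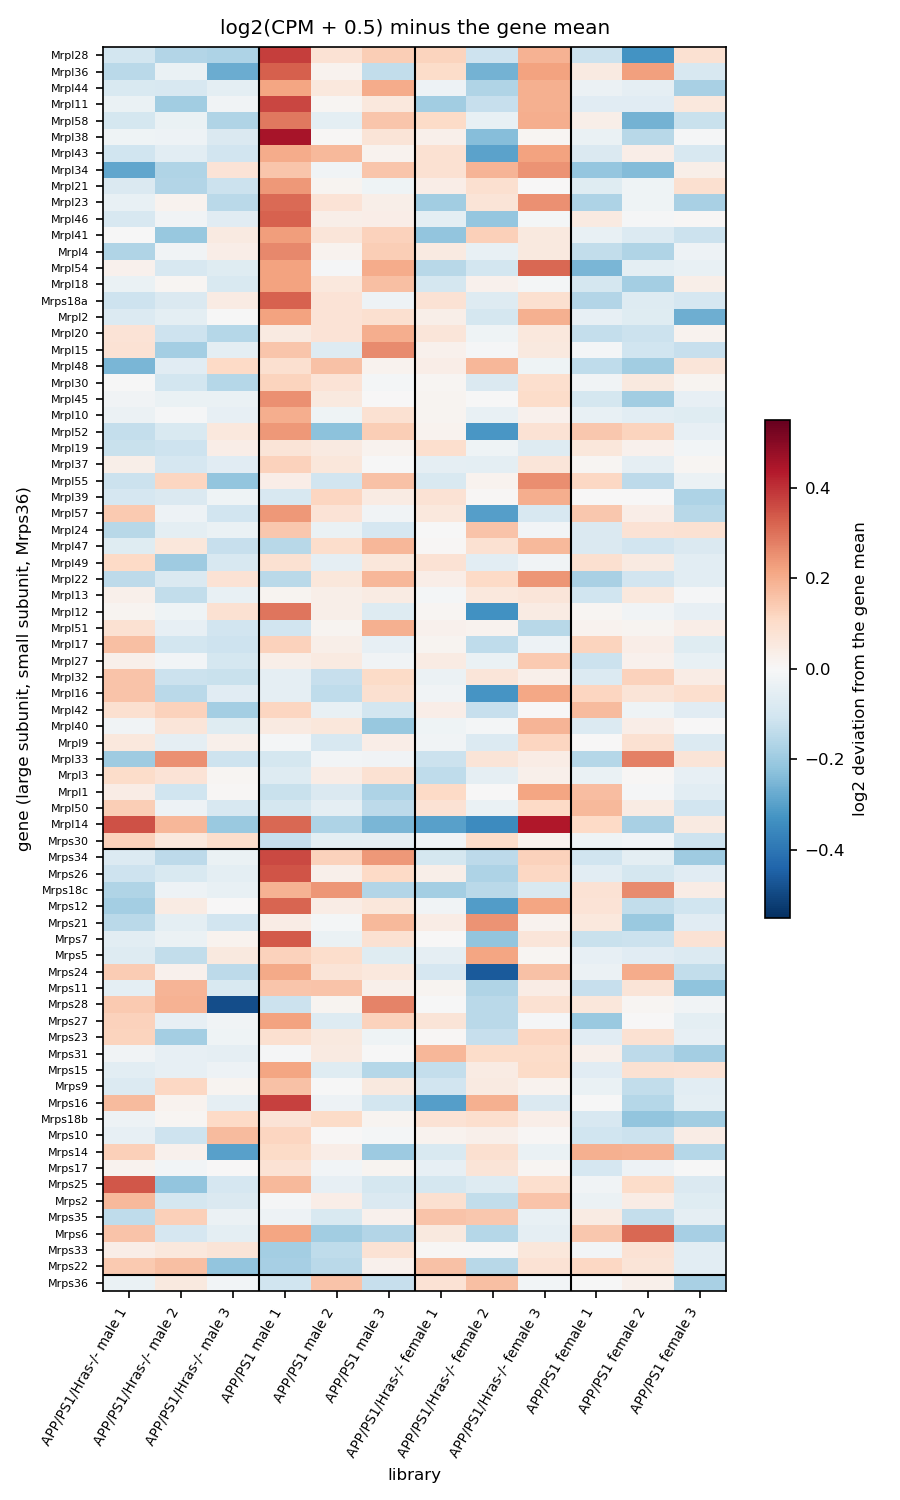
Deviation of log2(CPM + 0.5) from each gene's mean for the 76 genes (rows, ordered within subunit by the male difference) in 12 libraries (columns), red above and blue below the mean. APP/PS1/Hras-/- female 3 and APP/PS1 male 1 are red for most rows, with 58 and 57 members above their own mean. APP/PS1 males 2 and 3 and APP/PS1/Hras-/- female 1 also had most members above, with 45, 47 and 44.

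Between the sexes, 30 members were higher and 46 lower in females than in males, with a median log2 difference (female minus male) of -0.02, against 0.0017 for all genes tested. No member passed the adjusted threshold, and none had an unadjusted p under 0.05 with edgeR, DESeq2 or limma-voom. Of all genes, edgeR called 0.0693%, and 4.65% had an unadjusted p under 0.05. Estimates ran from -0.16 to 0.15. On the higher side the smallest p values belonged to Mrpl1 at 0.15 (SE 0.074) and Mrpl50 at 0.09 (SE 0.067), and on the lower side to Mrps34 at -0.16 (SE 0.091) and Mrpl18 at -0.11 (SE 0.068).

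Genes that work with the mitochondrial ribosome were examined across sexes from lists, and no gene of any list passed the adjusted threshold (edgeR). Only Ptcd3 and Mpv17l2 had an unadjusted p under 0.05 (edgeR), as 1.68% of all genes tested did. Among 5 ribosomal proteins with other names, Dap3, Ptcd3, Aurkaip1, Chchd1 and Gadd45gip1, all were lower in knockouts, with a median of -0.03. Ptcd3, a small subunit protein encoded 53.7 kb from Mrpl35, had 38.5, 36.98 and 33.97 CPM in the 3 APP/PS1/Hras-/- males, against 39.1, 35.7 and 44.8 CPM in the 3 APP/PS1 males. In females it had 37.96, 36.7 and 33.9 CPM in the 3 APP/PS1/Hras-/- females, against 44.2, 41.5 and 37.9 CPM in the 3 APP/PS1 females. Its groups overlapped in both sexes, and its difference was -0.16 (SE 0.069, unadjusted p = 0.0379, adjusted p = 0.9999). Among 12 translation factors 8 were higher and 4 lower (median 0.02), with Gfm1, an elongation factor, at 0.05. Of 17 mitochondrial aminoacyl-tRNA synthetases 9 were higher and 8 lower (median 0.01), with Mars2, which charges the methionine tRNA, at 0.19 (SE 0.091). Of 22 assembly factors 8 were higher and 14 lower (median -0.01). Mpv17l2, which acts in ribosome assembly, had the smallest p of all these lists, with a difference of -0.28 (SE 0.088, unadjusted p = 0.00592). Of 14 genes of mitochondrial transcription and biogenesis 8 were higher and 6 lower (median 0.02), with Tfam, which packs and transcribes mitochondrial DNA, at 0.08.

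The mRNAs that the mitochondrial ribosome translates were also counted. Of the 13 mitochondrial mRNAs, 3 were higher and 10 lower in knockouts across sexes (median -0.06), with mt-Co2, a subunit of cytochrome c oxidase, at -1.004 (SE 0.56). In males 10 were higher and 3 lower (median 0.09), and in females all 13 were lower (median -0.20). None passed the adjusted threshold (edgeR), and at an unadjusted p under 0.05 there were 0 across sexes, 3 in males and 1 in females, where 1.68%, 3.91% and 3.81% of all genes tested were. In each sex most of these mRNAs lay in the opposite direction to most members, a description without a test. The summed levels of these mRNAs overlapped between the genotypes in both sexes. With RIN as a covariate the male direction of the members was lost (46 higher and 30 lower).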

How the data were processed

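Frontal cortex mRNA of 12 mice was measured, 3 per genotype and sex. The deposited table holds the authors' counts per gene and library, unnormalized. Per the labels, libraries were made with a stranded mRNA kit. Per the submitters' processing notes, the tools were FastQC 0.11.7, Trimmomatic 0.33, featureCounts and HISAT2 2.1.0, and the builds mm10 and mm9. The annotation release, the strand setting and the treatment of multiply aligned reads were not given in the sources used here.

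Gene identifiers were matched to GENCODE M21 (GRCm38), and 37 of 54532, with 0.00986% of the counts, had no match. Genotype, sex and interaction effects were tested with edgeR 4.0.16 (R 4.3.3) and its quasi-likelihood test with robust dispersions (TMM scaling, filterByExpr over the 4 groups), Benjamini-Hochberg adjusted over all 17307 genes tested, at a threshold of 0.05. An additive fit with sex and genotype gave the effects across sexes and of sex, and 4 group means gave those within sexes and the interaction. F statistics gave the standard errors, and 1.96 of these to either side made the approximate 95% intervals. These are narrower than the F tests imply. The interval of Mrpl46 across sexes, -0.298 to -0.0084, left out 0 although its unadjusted p was 0.0568 (edgeR). Tests cover the spread between the mice sampled.

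The members and lists were chosen with earlier results of these data known. Named genes were the members with the highest (6 by CPM and 6 per kb) and 4 lowest levels, those with the smallest p in each direction (4 for genotype, 2 for the interaction and sex), members on chromosome 6 and those within 10 Mb of Hras. Mrps11, Mrps17 and Mrpl14 were named after their values were seen, and promoter motifs were shortened after longer forms had been searched. Alternatives were DESeq2 1.42.0, limma-voom (limma 3.58.1), other scalings and filters, non-robust dispersions, RIN as a covariate, no sex term, each sex alone, a threshold of 0.1 and libraries left out. The member counts by direction and overlap without single libraries or with RIN were added after seeing the data. The tests were run on counts simulated from the fitted dispersions with known genotype changes. That simulation held no effects of RIN or tissue content, so it cannot speak to them.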

Additional observations from a re-analysis of the deposited data

Results flagged for a closer look

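Among the 152 combinations of a member and a genotype (6 libraries each), 10 held a library far from the other 5 by the ratio of its gap to the whole range. Chance flags about 1 in 20 such groups.

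Of these, 4 were high in APP/PS1/Hras-/- female 3. Mrpl44 reached 18.8 CPM there, against 14.52 to 16.03 CPM in the other knockouts, and Mrpl45 32.4 CPM, against 29.4 to 30.5 CPM. Mrpl54 reached 14.9 CPM, against 10.6 to 12.1 CPM, and Mrps34 21.4 CPM, against 17.7 to 19.0 CPM. One was low in APP/PS1/Hras-/- female 2, where Mrpl12 had 28.55 CPM, against 35.5 to 38.3 CPM.

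The other 5 were high in APP/PS1 male 1, the library with the lowest RIN (7.8). Mrpl11 reached 36.4 CPM, against 27.0 to 29.3 CPM in the other APP/PS1 mice, Mrpl12 44.4 CPM, against 34.3 to 36.9 CPM, and Mrpl38 44.95 CPM, against 29.4 to 34.3 CPM. Mrpl46 reached 20.6 CPM, against 16.2 to 16.9 CPM, and Mrps16 20.4 CPM, against 13.9 to 15.6 CPM.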

How the results depend on the processing

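No member passed the adjusted threshold in any of the 5 comparisons under any alternative run, a threshold of 0.1 included. With RIN as a covariate the median log2 difference in males was 0.0503, that of the interaction -0.0357, and 30 members were lower in males. Under the same covariate the differences of Mrpl23 (0.121) and Mrps25 (0.04) across sexes, of Mrps33 (-0.0382), Mrps22 (-0.0186) and Mrps26 (0.0245) in males and the interaction of Mrps33 (0.103) turned sign. So did those of Mrpl46 in males (0.0943) and for the interaction (-0.271) and of Mrps11 across sexes (0.0238). Of 38 differences of members named by rule, 22 moved by over 1.5 times or turned sign with RIN, 19 did so without at least 1 of the libraries, and 13 did neither. Mrpl23 also turned (0.0132) when APP/PS1/Hras-/- male 1 and APP/PS1 female 2 were left out together. The cause was not tested. With each library left out in turn, Mrpl23 ran from -0.0826 to 0.0507 and Mrps25 from -0.0909 to 0.0438. The member median then ran from 0.00424 (without APP/PS1/Hras-/- female 3) to 0.0774 in females, from -0.115 to -0.0653 in males, from 0.0835 to 0.1495 for the interaction, from -0.0482 to 0.00316 across sexes and from -0.0414 to -0.00338 between sexes. By construction, sums without the 3 highest members were smaller, at 1589 CPM in knockout males, 1712 CPM in APP/PS1 males, 1642 CPM in knockout females and 1588 CPM in APP/PS1 females. Without TMM factors the APP/PS1 female sum was 1769 CPM. No paired analysis was possible because the labels give mice no replicate number shared across groups. Precision is limited by 3 mice per group and by low counts in members such as Mrps18c.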

Other observations

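Among the 8 members on chromosome 17, a grouping chosen after its values were seen, 1 was higher and 7 were lower in APP/PS1/Hras-/- than in APP/PS1 males (median log2 difference -0.18). Of all 76 members 58 were lower in males, and of all genes tested 51.5% were higher. In females 7 of the 8 were higher and 1 lower (median 0.12), against 50 of all 76 members and 50.5% of all genes tested higher. Mrpl28 and Mrps34, the members with the smallest p for the interaction, lie 1226 kb apart on that chromosome. With RIN as a covariate their male differences were -0.05 and -0.10. No test was made of the grouping.

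Of the processed pseudogenes named after members, Mrpl48-ps held the most counts, 307 over the 12 libraries, with 1.075 to 2.259 CPM, far below Mrpl48 itself.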
